A study of Mus musculus with 21 samples.

Results

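The mRNAs of 10 splicing regulators were followed through an RNA-seq series on mouse embryonic stem cells. They are the muscleblind genes Mbnl1, Mbnl2 and Mbnl3, the CELF genes Celf1 and Celf2, Rbfox2, the polypyrimidine tract-binding genes Ptbp1 and Ptbp2, and the epithelial regulators Esrp1 and Esrp2. Members were taken by symbol from the deposited count table, and all 10 were found among its 22512 genes and passed the filter on low counts in each experiment. Mbnl1 was included as a known target of TRIM71, and the other 9 as genes to set beside it.

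The study measured total RNA in 21 libraries, 3 replicates in each of 7 groups, in 2 experiments that its labels number. The series' design text calls the replicates biological. Experiment 1 held unedited, untransfected cells (W), a Trim71-/- line (Trim71KO) and an Ago2-/- line (Ago2KO). Experiment 2 held unedited cells given a plasmid that encodes the peptide T6B, which binds Argonaute and competes with TNRC6 proteins, fused to mCherry (T6B_WT), or a mutant of that peptide (T6B_MUT). It also held the Trim71-/- and Ago2-/- lines transfected with an empty plasmid (Trim71KO_empty and Ago2KO_empty). Every group, controls included, derived from a stem cell line of 129S6/SvEvTac background with a GFP reporter that carries TRIM71 binding sites and with stably expressed Cas9, grown on gelatin in serum with LIF. How many clones each edited line represents is not given in the sources used here. Experiment 2 has no unedited cells with an empty plasmid, so its edited lines were compared with T6B_MUT, and there genotype and plasmid cannot be told apart.

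Splicing regulators of these families bind short motifs in pre-mRNA and raise or lower the use of nearby exons, so that their relative amounts help to set which isoforms a cell type makes. MBNL proteins favour splicing patterns of differentiated cells over those of pluripotent cells, CELF proteins often act against MBNL on the same exons, and PTBP1 holds down neural exons and its own paralog PTBP2. TRIM71 (LIN-41) is an RNA-binding repressor of early development, AGO2 carries microRNAs, and TNRC6 (GW182) proteins link Argonaute to mRNA silencing. Gene-level counts measure the amount of each mRNA and not how any exon was spliced. In such bulk samples fewer cells that express a gene and less RNA per cell cannot be told apart.

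Embryonic stem cells express microRNAs of the miR-290 and miR-302 clusters, many of which share a seed, the bases 2 to 8 that pair with target mRNAs. A match to a seed is a sequence feature by which Argonaute can be directed to an mRNA. The 5 mature sequences with this seed in the RefSeq (GRCm38.p6) set used here are shown, which may not be all that share it. The first 2 come from the cluster on chromosome 3 and the others from that on chromosome 7, and capitals mark the seed:
mmu-miR-302b-3p: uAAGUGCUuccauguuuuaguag
mmu-miR-302d-3p: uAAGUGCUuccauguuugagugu
mmu-miR-291a-3p: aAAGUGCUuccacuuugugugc
mmu-miR-294-3p: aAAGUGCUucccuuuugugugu
mmu-miR-295-3p: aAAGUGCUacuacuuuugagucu

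The match to that seed, AGCACTT on the mRNA strand, was searched in the longest annotated 3′ UTR of each member (GENCODE M21, GRCm38). It occurred in 4 of the 10, and the 5 matches are printed with 9 bases on either side and the match in capitals. They lie at chr14:120431483-120431507 (plus strand, Mbnl2), chr2:91015745-91015769 (plus strand, Celf1), chr2:6546555-6546579 and chr2:6540401-6540425 (minus strand, Celf2), and chr8:106131052-106131076 (minus strand, Esrp2):
Mbnl2: ggctataacAGCACTTcacagaact
Celf1: tctaaaaggAGCACTTgccccagca
Celf2 proximal: gccaggagaAGCACTTaaaactcca
Celf2 distal: ggtcctgtaAGCACTTgtgactata
Esrp2: catcaagtcAGCACTTgccctcagg

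The proximal Celf2 match is followed by an A, which makes it an 8mer, and the other 4 are 7mers. Of 15004 3′ UTRs, the longest annotated for each gene in the table that had one, 17.5% held at least 1 match, but the share rises with length. Among 3′ UTRs within 20% of the member's own length, a match was found in 29.8% for Mbnl2, 58.1% for Celf1, 58% for Celf2 and 11.6% for Esrp2. The 6 genes whose longest annotated 3′ UTR held no match were Mbnl1, Mbnl3, Rbfox2, Ptbp1, Ptbp2 and Esrp1. A match describes these letters only and is not a measured site. Other seeds and other kinds of match were not searched, and which 3′ UTR forms these cells use was not examined.

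All 10 pluripotency markers examined (Pou5f1, Nanog, Sox2 and others) were detected in every library, the lowest at 16.2 RPKM. Of these 10, 6 were higher and 1 lower in Trim71KO than in W, and 6 were higher and 2 lower in Trim71KO_empty than in T6B_MUT, with median log2 fold changes of 0.28 and 0.27. Library totals were 29.6 to 50.8 M counts in Experiment 1 and 33.9 to 57.9 M in Experiment 2. Trim71 mRNA was lower but still present in both Trim71-edited groups, at 44.7 to 49.9 RPKM in Trim71KO against 65.1 to 67.3 RPKM in W, so loss of the protein is taken from the labels. Trim71 was also called lower in Ago2KO than in W (log2 fold change -0.25, edgeR adjusted p 0.00161), at 54.7 to 57.0 RPKM. With T6B_WT it was at 44.1 to 46.7 RPKM, below the 51.0 to 53.4 RPKM of T6B_MUT, but was not called (edgeR adjusted p 0.102). Ago2 was at 2.87 to 3.16 RPKM in Ago2KO against 9.72 to 11.0 RPKM in W. In the libraries labelled Ago2KO_empty it stood at 6.08, 11.4 and 3.21 RPKM in replicates 1, 2 and 3, against 7.88 to 10.02 RPKM in T6B_MUT. Replicate 2 thus goes against its label, replicate 1 lies between the Ago2KO and the T6B_MUT levels, and in the whole group Ago2 was not called lower (log2 fold change -0.30, edgeR adjusted p 0.601). Member results from this group are mostly given with and without replicate 2, and without another library where that changed a call. Its marker counts, list counts and named list genes include replicate 2 and were not refitted without it. Markers of other cell types also differed between groups. Of 10 primitive endoderm markers, 9 were lower in Trim71KO and 10 in Ago2KO than in W, with sums of 44.2 to 46.4 RPKM in W, 19.7 to 20.7 in Trim71KO and 22.2 to 24.2 in Ago2KO. Of 7 tested markers of two-cell-like cells, all 7 were higher in T6B_WT and 6 in the libraries labelled Ago2KO_empty than in T6B_MUT, with sums of 34.5 to 35.9, 24.5 to 29.6 and 7.36 to 7.80 RPKM. In Experiment 1 they went the other way, with 4 of the 5 tested lower in Trim71KO and 4 of 5 lower in Ago2KO (median log2 fold changes -3.55 and -1.99). Their sums there were 5.57 to 6.47 RPKM in W, 0.375 to 0.698 in Trim71KO and 1.41 to 1.63 in Ago2KO. Their part in the results below was not tested.

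RPKM, which divides reads by gene length and library size, allows levels of different genes to be compared if the lengths hold. The deposited lengths run from 4340 bases for Esrp2 to 25884 for Celf2, and ranks between genes depend on them. In W the members spanned more than 3 orders of magnitude. Ptbp1 was the most abundant at 104 ± 5.98 RPKM (SD, n = 3), followed by Celf1 at 30.5 ± 0.904 and Rbfox2 at 12.1 ± 0.229. Ptbp2 at 3.62 ± 0.414 RPKM and Mbnl2 at 3.03 ± 0.159 formed a middle tier, and Esrp1 and Esrp2 were level with each other at 1.72 ± 0.175 and 1.72 ± 0.0998 RPKM. Mbnl1 at 0.727 ± 0.0107, Mbnl3 at 0.316 ± 0.0208 and Celf2 at 0.0642 ± 0.0128 RPKM were the lowest. Ptbp1, Celf1 and Rbfox2 held the first 3 ranks in all 7 groups and Celf2 the last, so the changes described next moved genes within the middle and lower ranks.

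Against W, 4 of the 10 members were called in Trim71KO, 2 higher and 2 lower, and 2 were called in Ago2KO, 1 higher and 1 lower. Calling required an adjusted p under 0.05 in edgeR's quasi-likelihood test, with Benjamini-Hochberg adjustment over every gene tested, and edgeR adjusted p below refers to that value. The share of all genes called was 32.6% in Trim71KO (16.9% higher and 15.6% lower) and 18% in Ago2KO (10.2% higher and 7.78% lower). The members' shares are therefore close to the background. The Ago2KO background divided into 2161 higher and 1650 lower genes, which became 2556 and 1189 when libraries were scaled by total alone. In Experiment 2, against T6B_MUT, 2 members were called in T6B_WT, 1 in each direction, beside 16% of all genes (9.29% higher and 6.69% lower). In Trim71KO_empty 3 were called, 2 higher and 1 lower, beside 27.8% (14.4% higher and 13.4% lower). That background of 3104 higher and 2871 lower genes became 2778 and 3219 when scaled by total alone, so the balance of directions turned. For the libraries labelled Ago2KO_empty the count was 4, 3 higher and 1 lower, beside 28.8% (16.4% higher and 12.4% lower). Scaling by total alone turned this balance too, from 3531 higher and 2670 lower to 2984 and 3274. The members called were then 2 higher and 2 lower, as they also were with DESeq2 and with no filter on low counts. The T6B_WT count fell to 1 without T6B_WT replicate 3, T6B_MUT replicate 1 or T6B_MUT replicate 2. All genes called in those fits numbered 2470, 2045 and 2322, against 3437 with every library. For Ago2KO_empty the count without replicate 2 was again 4, 2 higher and 2 lower in place of 3 and 1. It was 7 without replicate 3 and 2 without T6B_MUT replicate 1 or 2. The background moved as well, from 6201 genes called to 5182 without replicate 2 and 8083 without replicate 3. Without T6B_MUT replicate 1 or 2 it was 3894 or 4493.

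**Figure D1:**
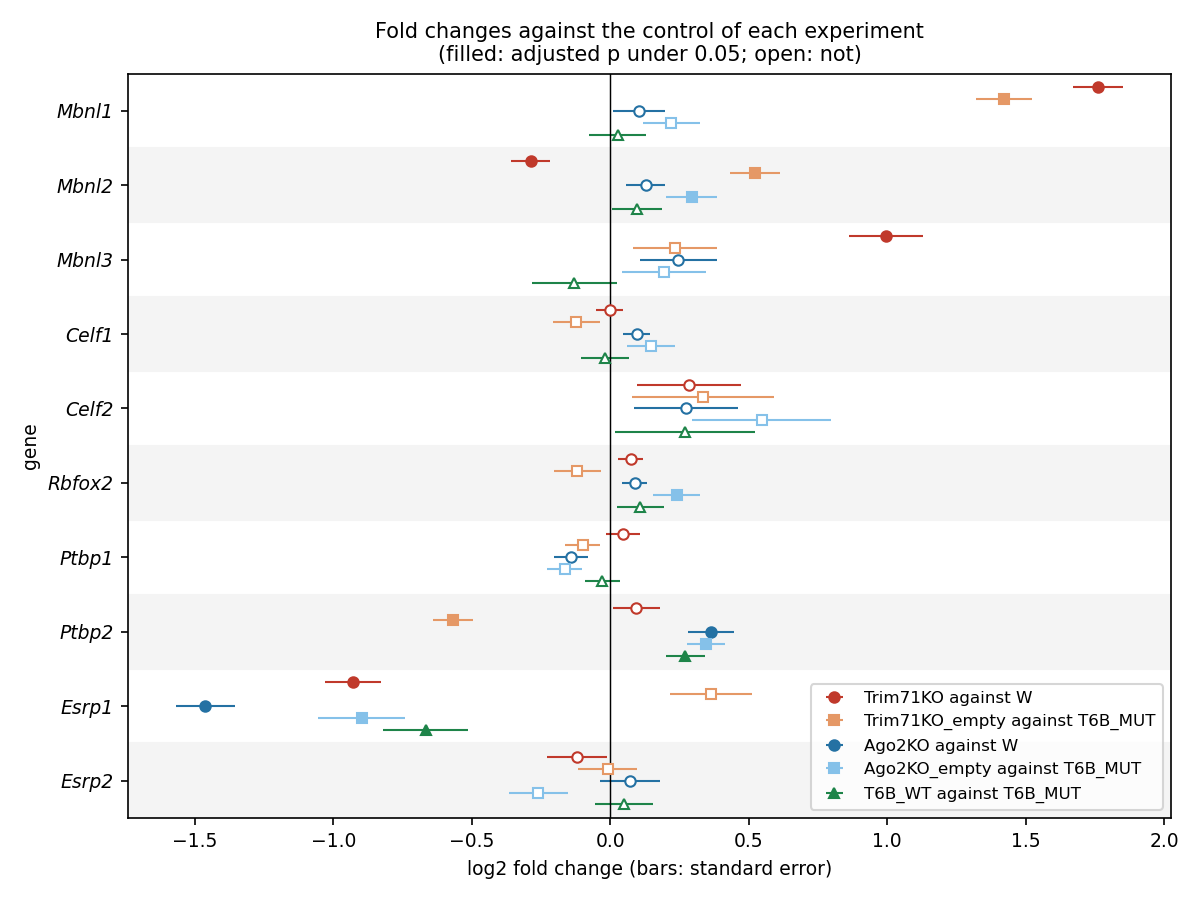
Log2 fold change (horizontal axis, with its standard error) of each of the 10 genes in the 5 comparisons with a control, 3 libraries a group. Filled symbols were called. Mbnl1 stands apart in both Trim71 comparisons, at 1.76 and 1.42, and Esrp1 is lowest in Ago2KO, at -1.46.

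Mbnl1 (ENSMUSG00000027763, GRCm38 chromosome 3, 60472830 to 60629750, plus strand, protein coding) encodes the muscleblind protein best known from myotonic dystrophy, where it is sequestered by repeat RNA. It was at 0.736, 0.715 and 0.729 RPKM in the 3 W libraries and at 2.56, 2.49 and 2.35 RPKM in Trim71KO. In Experiment 2 it was at 0.834, 0.843 and 0.920 RPKM in T6B_MUT and at 2.30, 2.37 and 2.27 RPKM in Trim71KO_empty. Every Trim71-edited library was thus above every control library, by a margin far wider than the spread within groups. The log2 fold change was 1.76 (edgeR adjusted p 5.14e-09, SE 0.09) in Experiment 1 and 1.42 (edgeR adjusted p 1.06e-08, SE 0.10) in Experiment 2, or 3.39-fold and 2.68-fold. The difference between these values, -0.34 (SE 0.14), did not pass the test (edgeR adjusted p 0.135).

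No such rise was called when Argonaute or TNRC6 was the target. Mbnl1 was at 0.776, 0.926 and 0.664 RPKM in Ago2KO, on either side of W, with a log2 fold change of 0.10 (edgeR adjusted p 0.512, SE 0.09). With T6B_WT it was at 0.898, 0.826 and 0.915 RPKM, overlapping T6B_MUT, with a log2 fold change of 0.03 (edgeR adjusted p 0.902, SE 0.10). In the libraries labelled Ago2KO_empty it was at 1.04, 1.14 and 0.805 RPKM, so that 2 libraries lay above T6B_MUT and 1 below it. That log2 fold change of 0.22 was not called (edgeR adjusted p 0.113), was 0.08 without replicate 2, and was called without replicate 3, at 0.33 (adjusted p 0.00343). Tested directly, Mbnl1 was higher in Trim71KO than in Ago2KO by 1.66 on the log2 scale (edgeR adjusted p 7.10e-09), and 6 of the 10 members were called in that comparison beside 34.2% of all genes. Fibroblast markers, 4 of 8 of which were in the table, also summed to more in Trim71KO (3.83 to 4.29 RPKM, against 2.57 to 2.76 in W) and in Trim71KO_empty (3.59 to 3.79, against 1.87 to 2.07 in T6B_MUT). Of the 3 tested in Experiment 1, 2 were higher and 1 lower in Trim71KO, and of the 4 tested in Experiment 2, 2 were higher and 0 lower in Trim71KO_empty. Over all libraries Thy1 ranged from 0.621 to 3.73 RPKM, Fbn1 from 0.333 to 1.16, Col1a1 from 0.0675 to 0.192 and Col1a2 from 0 to 0.0488. Pluripotency markers were mostly called higher in both Trim71 comparisons, but their sums overlapped those of the controls. They summed to 2685 to 2849 RPKM in Trim71KO against 2583 to 2695 in W. In Trim71KO_empty the sum was 2485 to 2688 RPKM, against 2481 to 2590 in T6B_MUT. In Ago2KO, where Mbnl1 was not called, it was 2759 to 2841 RPKM, above W, with 2 markers higher and 1 lower. Two-cell-like markers were lower in Trim71KO and had 0 of 7 called in Trim71KO_empty. The part of these markers in the Mbnl1 values was not tested.

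Mbnl2 (ENSMUSG00000022139, chromosome 14, 120275669 to 120431697, plus strand) encodes the paralog that is most prominent in brain and was the main muscleblind mRNA of the unedited cells. It was at 3.20, 2.88 and 3.02 RPKM in W and at 2.5, 2.58 and 2.39 RPKM in Trim71KO, so that all 3 edited libraries were lower. In Experiment 2 it was at 4.78, 5.03 and 5.28 RPKM in T6B_MUT and at 8.36, 6.93 and 6.33 RPKM in Trim71KO_empty, where all 3 edited libraries were higher. The log2 fold change was -0.29 (edgeR adjusted p 0.00612, SE 0.07) in Experiment 1 and 0.52 (edgeR adjusted p 0.000324, SE 0.09) in Experiment 2. These opposite changes differed from each other by 0.81 (edgeR adjusted p 5.37e-05, SE 0.12).

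Mbnl2 did not pass the test in Ago2KO, where it was at 3.35, 3.64 and 3.00 RPKM and overlapped W (0.13 on the log2 scale, edgeR adjusted p 0.243). With T6B_WT it was at 5.22, 5.30 and 5.59 RPKM, overlapping T6B_MUT (0.10 on the log2 scale, edgeR adjusted p 0.538). The libraries labelled Ago2KO_empty, at 6.72, 5.90 and 5.64 RPKM, all lay above T6B_MUT. Their log2 fold change of 0.29 was called (edgeR adjusted p 0.0221) and was 0.29 without replicate 2 as well (adjusted p 0.0388). It was no longer called without replicate 1 (0.20, adjusted p 0.157), T6B_MUT replicate 1 (0.24, adjusted p 0.116) or T6B_MUT replicate 2 (0.28, adjusted p 0.0685). Of the 7 two-cell-like markers, 6 were higher in the libraries labelled Ago2KO_empty, and all 7 were higher in T6B_WT, where Mbnl2 was not called. The markers summed to 7.57 to 7.98 RPKM in Trim71KO_empty, where Mbnl2 was highest, and to 7.36 to 7.80 in T6B_MUT. Their part in the Mbnl2 values was not tested.

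Mbnl3 (ENSMUSG00000036109, chromosome X, 51117269 to 51206532, minus strand), the family member known for expression in proliferating and embryonic cells, was the least abundant of the 3. It was at 0.298, 0.339 and 0.311 RPKM in W and at 0.689, 0.653 and 0.558 RPKM in Trim71KO, from 125 to 137 and 202 to 237 counts a library. All 3 edited libraries were above W, and the log2 fold change was 1.00 (edgeR adjusted p 4.58e-05, SE 0.13). In Experiment 2 it was at 0.357, 0.307 and 0.332 RPKM in T6B_MUT and at 0.402, 0.334 and 0.434 RPKM in Trim71KO_empty. Those ranges overlapped, and the log2 fold change of 0.23 was not called (edgeR adjusted p 0.272, SE 0.15).

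The change of Mbnl3 in the Trim71 comparison differed between the experiments by -0.76 (edgeR adjusted p 0.0148, SE 0.20). That call was lost without T6B_MUT replicate 1 (-0.68, adjusted p 0.0588) or without Trim71KO_empty replicate 2 (-0.64, adjusted p 0.0537). Mbnl3 was called in no comparison of Ago2KO, T6B_WT or the libraries labelled Ago2KO_empty with its control. The log2 fold changes were 0.25, -0.13 and 0.19, the last being 0.10 without replicate 2. The smallest adjusted p of the 3 in edgeR's quasi-likelihood test was 0.263. Two-cell-like and primitive endoderm markers were lower in Trim71KO, where Mbnl3 was higher, and their part in that rise was not tested.

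**Figure D2:**
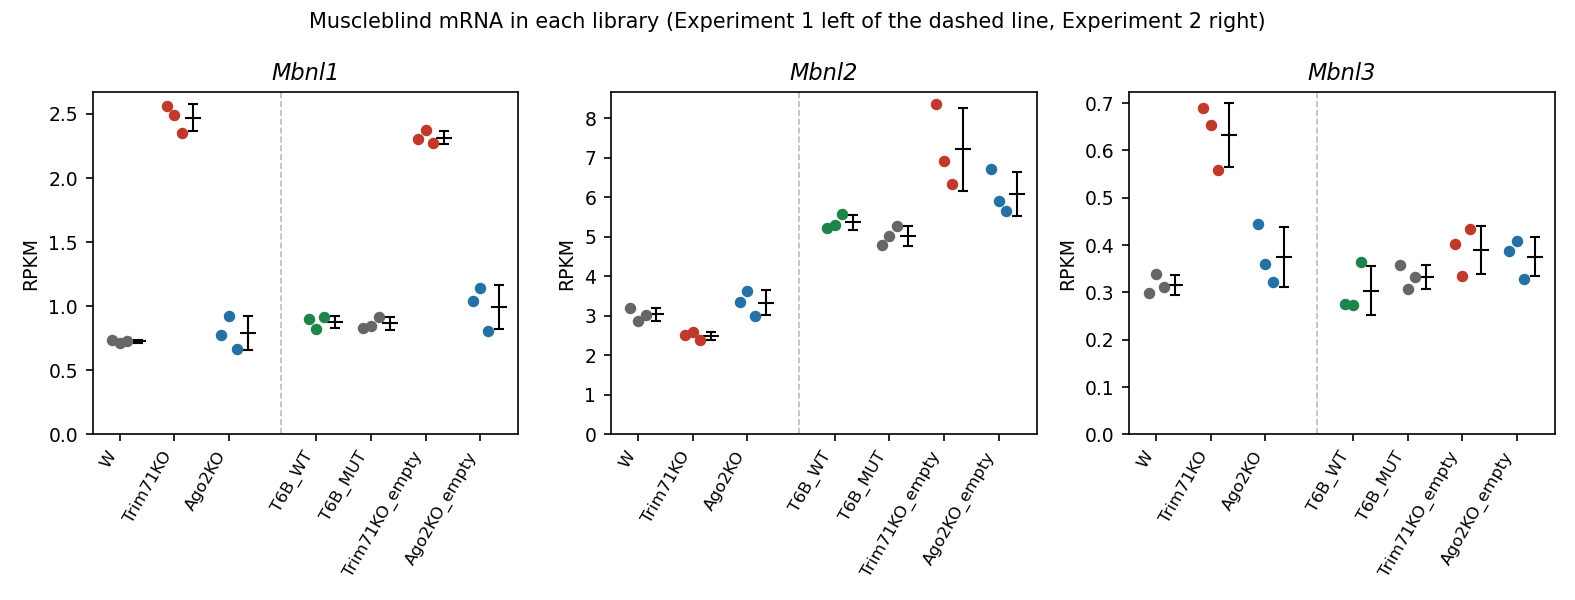
RPKM of the 3 muscleblind genes (vertical axes) in each library, by group, with the mean and SD of 3 libraries beside the points. Mbnl1 lies between 2.27 and 2.56 in both Trim71-edited groups and at or below 1.14 elsewhere, while Mbnl2 is lowest in Trim71KO and highest in Trim71KO_empty.

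The make-up of the muscleblind family can be read from the 3 genes' shares of their summed RPKM, given here without a test. Mbnl1 made up 17.4% to 18.2% of the sum in W, 16.6% to 18.8% in Ago2KO and 43.5% to 44.5% in Trim71KO. In Trim71KO the Mbnl1 and Mbnl2 levels met in RPKM, at 2.47 ± 0.106 and 2.49 ± 0.0989 (SD, n = 3). Raw counts there were 1650 to 2088 a library for Mbnl1 and 1096 to 1356 for Mbnl2. The shares and this likeness of levels rest on deposited lengths of 18717, 11993 and 8743 bases for Mbnl1, Mbnl2 and Mbnl3. In Experiment 2 the Mbnl1 share was 13.6% to 14.1% in T6B_MUT and 20.8% to 25.1% in Trim71KO_empty. The family sum was 5.97 to 6.54 RPKM in T6B_MUT and 9.04 to 11.1 RPKM in Trim71KO_empty, of which Mbnl2 made up 70.1% to 75.6%.

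Ratios within a library, which need no scaling between libraries, were tested over both experiments together with an exact permutation test (two-sided, labels permuted within each experiment, 400 arrangements). The log2 ratio of Mbnl1 to Mbnl2 was higher with the Trim71 edit by 1.48 on average, by 2.05 in Experiment 1 and by 0.91 in Experiment 2. The log2 ratio of Mbnl1 to Mbnl3 was higher by 0.98 on average, by 0.77 and 1.20 in the experiments. Both had an exact permutation p of 0.005, the smallest that these arrangements allow, and 0.01 after adjustment over the 4 ratios tested. The ratios were chosen with earlier results of these data known, which that adjustment does not cover. All 6 edited libraries lay above the 6 controls in both ratios. Neither ratio passed the test with the Ago2 edit, at -0.06 for Mbnl1 to Mbnl2 (exact permutation p 0.46) and -0.06 for Mbnl1 to Mbnl3 (exact permutation p 0.59, both 0.59 after adjustment). Without replicate 2 of the libraries labelled Ago2KO_empty the first was -0.12 (exact permutation p 0.07, 0.093 after adjustment). The second was then -0.08 (exact permutation p 0.455, also after adjustment).

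**Figure D3:**
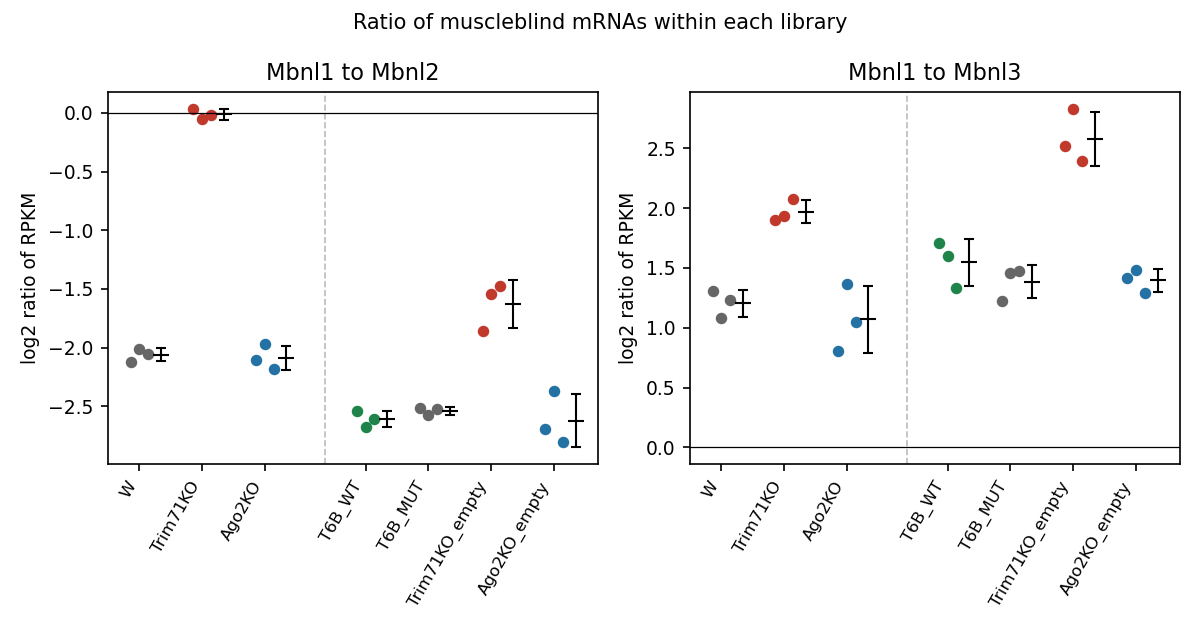
Log2 ratio of RPKM of Mbnl1 to Mbnl2 (left) and of Mbnl1 to Mbnl3 (right) in each library, by group, with the mean and SD of 3 libraries beside the points. The Mbnl1 to Mbnl2 ratio of Trim71KO averages -0.01, that is near parity in RPKM, against -2.06 in W. All Trim71-edited libraries lie above the controls of their experiment.

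Of the CELF genes, Celf1 (ENSMUSG00000005506, chromosome 2, 90940382 to 91019497, plus strand), which also promotes decay of mRNAs with GU-rich elements, was among the steadiest members. Its library values lay between 24.7 and 36.2 RPKM over all 21 libraries, and the extreme of 36.2 was replicate 2 of the libraries labelled Ago2KO_empty. Celf1 passed the test in none of the 5 comparisons with a control, with log2 fold changes from -0.12 to 0.15 and 0 of 5 at an unadjusted p under 0.05 in edgeR's quasi-likelihood test or called by DESeq2. Without replicate 3 of the libraries labelled Ago2KO_empty it was called higher in that group (0.21, edgeR adjusted p 0.0396). With all libraries it was called only between the edited lines of Experiment 2, lower in Trim71KO_empty than in the libraries labelled Ago2KO_empty by 0.27 (edgeR adjusted p 0.0231), and that call was lost without replicate 2 of the latter (-0.12, adjusted p 0.211). It was also lost without Trim71KO_empty replicate 1 (-0.21, adjusted p 0.109) or replicate 3 (-0.26, adjusted p 0.055), or when only these groups were fitted (-0.27, adjusted p 0.0886).

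Celf2 (ENSMUSG00000002107, chromosome 2, 6539694 to 7509563, minus strand), a neural and muscle paralog, was scarcely expressed, at 0.0497 to 0.178 RPKM from 55 to 175 counts a library. Its fold changes were positive in all 5 comparisons with a control, from 0.27 to 0.55 on the log2 scale, but none passed the test at this depth (standard errors 0.19 to 0.25). The largest, in the libraries labelled Ago2KO_empty, was called without replicate 3 (0.73, edgeR adjusted p 0.0163) and was 0.18 without replicate 2. The annotation places Gm26315, a small RNA gene with 27326 to 58693 counts a library, within Celf2 on the same strand, so some uncertainty attaches to counts this low.

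Rbfox2 (ENSMUSG00000033565, chromosome 15, 77078990 to 77307004, minus strand), a regulator of GCAUG-linked exons in stem cells and during epithelial to mesenchymal transition, lay between 8.83 and 13.6 RPKM over all libraries. It was at 11.9, 12.3 and 12.3 RPKM in W, 12.5, 12.8 and 13.0 in Trim71KO and 13.5, 12.6 and 12.7 in Ago2KO. Both edited groups lay above W without overlap, but neither difference was called. In Experiment 2 it was at 9.94, 9.90 and 9.93 RPKM in T6B_MUT and at 10.9, 13.6 and 10.2 RPKM in the libraries labelled Ago2KO_empty. The latter lay higher, and the log2 fold change of 0.24 was called (edgeR adjusted p 0.0407). It rested on replicate 2, without which it was 0.08 (adjusted p 0.40). It was also no longer called without replicate 1 (0.26, adjusted p 0.0597), or without T6B_MUT replicate 1, 2 or 3 (0.22, 0.22 and 0.21). Scaling by total alone, no filter on low counts, DESeq2 and a fit of these groups alone did not call it either (adjusted p 0.0557 to 0.117). Against T6B_MUT, T6B_WT lay higher (0.11) and Trim71KO_empty lower (-0.12), both without overlap. Neither was called (edgeR adjusted p 0.446 and 0.325). Rbfox2 was lower in Trim71KO_empty, at 9.08, 9.44 and 8.83 RPKM, than in the libraries labelled Ago2KO_empty by 0.36 (edgeR adjusted p 0.00327), and by 0.21 without replicate 2 of the latter (adjusted p 0.0182). In that comparison 5 of the 10 members were called, beside 31.6% of all genes (6801). Without replicate 2 of the libraries labelled Ago2KO_empty, 4 members and 6042 genes were called.

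Ptbp1 (ENSMUSG00000006498, chromosome 10, 79854427 to 79864771, plus strand), the repressor of neural exons in non-neural cells, was called by edgeR's quasi-likelihood test in no comparison with a control when all libraries were used with TMM scaling and the filter on low counts. It was at 97.3, 109 and 106 RPKM in W, 103, 102 and 117 in Trim71KO and 101, 90.4 and 91.3 in Ago2KO, and W overlapped both edited groups. Between the edited lines it was higher in Trim71KO than in Ago2KO by 0.19 (edgeR adjusted p 0.0257). That call was lost without Trim71KO replicate 3 (0.12, adjusted p 0.112), Ago2KO replicate 2 (0.16, adjusted p 0.0906) or Ago2KO replicate 3 (0.17, adjusted p 0.0975). In the libraries labelled Ago2KO_empty it was at 70.9, 76.1 and 72.4 RPKM, below the 84.4, 81.3 and 83.4 RPKM of T6B_MUT. The log2 fold change of -0.16 was not called there (edgeR adjusted p 0.0592), and without replicate 2 it was -0.22 and called (adjusted p 0.021). It was also called lower there by DESeq2 (-0.18, adjusted p 0.0204), with scaling by total alone (-0.21, edgeR adjusted p 0.0225) and with no filter on low counts (-0.19, edgeR adjusted p 0.0345).

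Ptbp2 (ENSMUSG00000028134, chromosome 3, 119718742 to 119784466, minus strand), the neural paralog, was called higher in Ago2KO, in T6B_WT and in the libraries labelled Ago2KO_empty. It was at 4.08, 3.46 and 3.30 RPKM in W and at 4.29, 4.83 and 4.88 RPKM in Ago2KO, all above W, with a log2 fold change of 0.36 (edgeR adjusted p 0.00722, SE 0.08). With T6B_WT it was at 5.51, 5.82 and 6.17 RPKM against 4.86, 4.62 and 5.06 RPKM in T6B_MUT, again without overlap, a log2 fold change of 0.27 (edgeR adjusted p 0.0119, SE 0.07). The T6B_WT call was lost without T6B_WT replicate 3 (0.21, adjusted p 0.0774), T6B_MUT replicate 1 (0.26, adjusted p 0.0575) or T6B_MUT replicate 2 (0.23, adjusted p 0.0759). The libraries labelled Ago2KO_empty, at 6.14, 6.23 and 5.86 RPKM, were higher by 0.35 (edgeR adjusted p 0.00134, SE 0.07), and by 0.30 without replicate 2 (adjusted p 0.0059). The 3 rises were small, between 1.21-fold and 1.29-fold, and the last 2 share the T6B_MUT control.

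No rise of Ptbp2 was called with the Trim71 edit. It was at 4.08, 3.95 and 3.58 RPKM in Trim71KO, overlapping W (0.09 on the log2 scale, edgeR adjusted p 0.432). In Trim71KO_empty it was at 3.18, 3.51 and 3.10 RPKM, below every T6B_MUT library, with a log2 fold change of -0.57 (edgeR adjusted p 9.32e-06, SE 0.07). The change of Ptbp2 in the Trim71 comparison differed between experiments by -0.66 (edgeR adjusted p 0.000226, SE 0.11). Compared directly with the Ago2 edit, Ptbp2 was lower with the Trim71 edit by 0.91 in Experiment 2 (edgeR adjusted p 1.98e-08). Without replicate 2 of the libraries labelled Ago2KO_empty that log2 fold change was -0.88 (edgeR adjusted p 2.04e-08). In Experiment 1 it was lower by 0.27 (adjusted p 0.022), a call that was lost without Trim71KO replicate 3 (-0.21, adjusted p 0.0784), Ago2KO replicate 2 (-0.24, adjusted p 0.0703) or Ago2KO replicate 3 (-0.23, adjusted p 0.0937).

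Neural progenitor markers, 5 of 8 of which were in the table, moved with Ptbp2 in part. Of those tested, 2 of 4 were higher in Ago2KO and 2 of 5 in T6B_WT, 2 of 5 were lower in Trim71KO_empty, and in the libraries labelled Ago2KO_empty 1 was higher and 1 lower. In Experiment 1 they summed to 3.94 to 4.36 RPKM in W, 4.93 to 5.32 in Ago2KO and 4.79 to 5.67 in Trim71KO, where 2 of 4 were higher and 1 lower. In Experiment 2 the sums were 4.23 to 4.58 RPKM in T6B_MUT, 5.92 to 6.52 in T6B_WT, 4.28 to 4.61 in the libraries labelled Ago2KO_empty and 3.45 to 3.97 in Trim71KO_empty. Over all libraries Sox1 ranged from 1.32 to 3.06 RPKM, Nes from 1.61 to 3.14 and Map2 from 0.163 to 0.536. Pax6 and Zic1 stayed at or below 0.135 and 0.0767 RPKM in every library, and the markers' part in the Ptbp2 values was not tested.

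Esrp1 (ENSMUSG00000040728, chromosome 4, 11331933 to 11386783, minus strand) maintains epithelial splice forms such as that of Fgfr2, and was the member with the largest falls. It was at 1.70, 1.91 and 1.56 RPKM in W, at 0.931, 0.924 and 0.867 RPKM in Trim71KO and at 0.560, 0.695 and 0.634 RPKM in Ago2KO. The 3 groups did not overlap. The log2 fold change against W was -0.93 (edgeR adjusted p 7.70e-06, SE 0.10) in Trim71KO and -1.46 (edgeR adjusted p 4.51e-07, SE 0.11) in Ago2KO, and the level in Trim71KO was above that in Ago2KO by 0.53 (edgeR adjusted p 0.0017).

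In Experiment 2 Esrp1 was at 0.753, 0.901 and 0.901 RPKM in T6B_MUT and at 0.554, 0.495 and 0.557 RPKM in T6B_WT, lower without overlap by 0.67 (edgeR adjusted p 0.00554, SE 0.15). The libraries labelled Ago2KO_empty, at 0.531, 0.392 and 0.427 RPKM, were lower by 0.90 (edgeR adjusted p 0.000409, SE 0.16), and by 0.83 without replicate 2 (adjusted p 0.00125). In Trim71KO_empty no fall was called. At 1.25, 1.19 and 0.830 RPKM it overlapped T6B_MUT through replicate 3, and its log2 fold change of 0.36 missed the threshold (edgeR adjusted p 0.073), but it was 0.52 and called without that library (adjusted p 0.00793). It was also called when only these groups were fitted (0.36, adjusted p 0.0475). Against the libraries labelled Ago2KO_empty it was higher by 1.26 (edgeR adjusted p 6.16e-06), and by 1.19 without replicate 2 of those (adjusted p 1.84e-05).

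The change of Esrp1 in the Trim71 comparison differed between the experiments by 1.29 (edgeR adjusted p 3.41e-05, SE 0.19). The ranges of Trim71KO (0.867 to 0.931 RPKM) and Trim71KO_empty (0.830 to 1.25) overlapped. Those of the controls W (1.56 to 1.91) and T6B_MUT (0.753 to 0.901) did not, and levels were not tested between experiments. Esrp1 was also the only member with a called difference between the T6B_WT effect and the Ago2KO effect, 0.80 (edgeR adjusted p 0.0186, SE 0.19), 1 of 10 members beside 3.16% of all genes. That call was lost without W replicate 2 (0.72), Ago2KO replicate 1 (0.72), T6B_WT replicate 1 (0.77), T6B_WT replicate 3 (0.76) or T6B_MUT replicate 1 (0.71), with adjusted p of 0.0526 to 0.0738. Primitive endoderm markers, an epithelial lineage, were lower in the Experiment 1 groups in which Esrp1 was lower, whereas of those 10 markers 1 was lower in T6B_WT, 4 were lower in the libraries labelled Ago2KO_empty, and 7 were lower and 2 higher in Trim71KO_empty. Two-cell-like markers were lower in Trim71KO and Ago2KO as well, but higher in T6B_WT and in the libraries labelled Ago2KO_empty, where Esrp1 was lower too. The part of either list in the Esrp1 values was not tested.

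**Figure D4:**
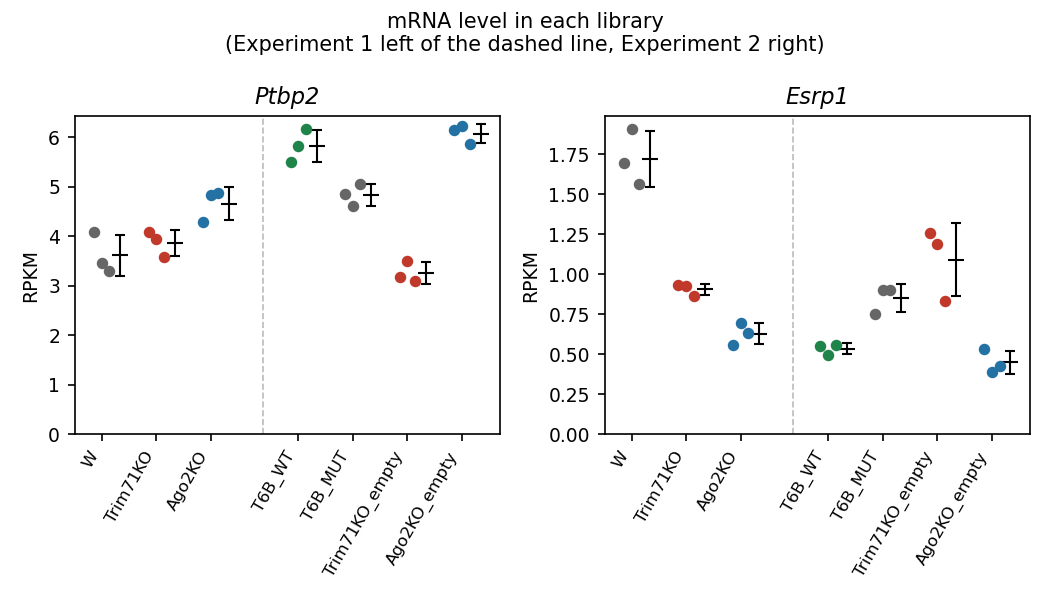
RPKM of Ptbp2 (left) and Esrp1 (right) in each library, by group, with the mean and SD of 3 libraries beside the points. Ptbp2 is lowest in Trim71KO_empty (3.26 RPKM on average) and highest in the libraries labelled Ago2KO_empty (6.08), while Esrp1 is highest in W (1.72) and lowest in the libraries labelled Ago2KO_empty (0.450).

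Esrp2 (ENSMUSG00000084128, chromosome 8, 106130319 to 106136974, minus strand), which shares most functions of ESRP1, was called in none of the 7 comparisons. It was at 1.71, 1.82 and 1.62 RPKM in W, 1.43, 1.53 and 1.77 in Trim71KO and 2.07, 1.68 and 1.66 in Ago2KO, and these ranges overlapped. The 5 log2 fold changes against a control ran from -0.26 to 0.07, with 1 of 5 at an unadjusted p under 0.05 in edgeR's quasi-likelihood test. DESeq2 called none of the 5. The value of -0.26, in the libraries labelled Ago2KO_empty, was -0.36 and called without replicate 1 (adjusted p 0.0445). Without that library Esrp2 was also called higher in Trim71KO_empty than in that group (0.35, adjusted p 0.0426). Esrp2 lies on chromosome 8, where the median gene stood 0.23 higher (log2) in Trim71KO than in W, against -0.01 on the other chromosomes, and it overlaps Nfatc3 and 1810019D21Rik on the opposite strand. Whether strand was used in counting is not given in the sources used here.

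The Trim71 comparison thus had a member-by-member difference between experiments. Of the 10 members, 4 were called in the test of that difference (2 higher and 2 lower), beside 10.1% of all genes (5.04% higher and 5.01% lower), and they were Mbnl2, Mbnl3, Ptbp2 and Esrp1 with the values given above. Mbnl1 was the only member called in the same direction in both experiments. For the Ago2 edit 0 of 10 members were called (2.13% of all genes) in edgeR's quasi-likelihood test or in DESeq2, with 2 at an unadjusted p under 0.05, Esrp1 and Esrp2. A p above the threshold does not show that the 2 Ago2 effects were equal, and the standard errors of the difference ran from 0.09 to 0.33.

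**Figure D5:**
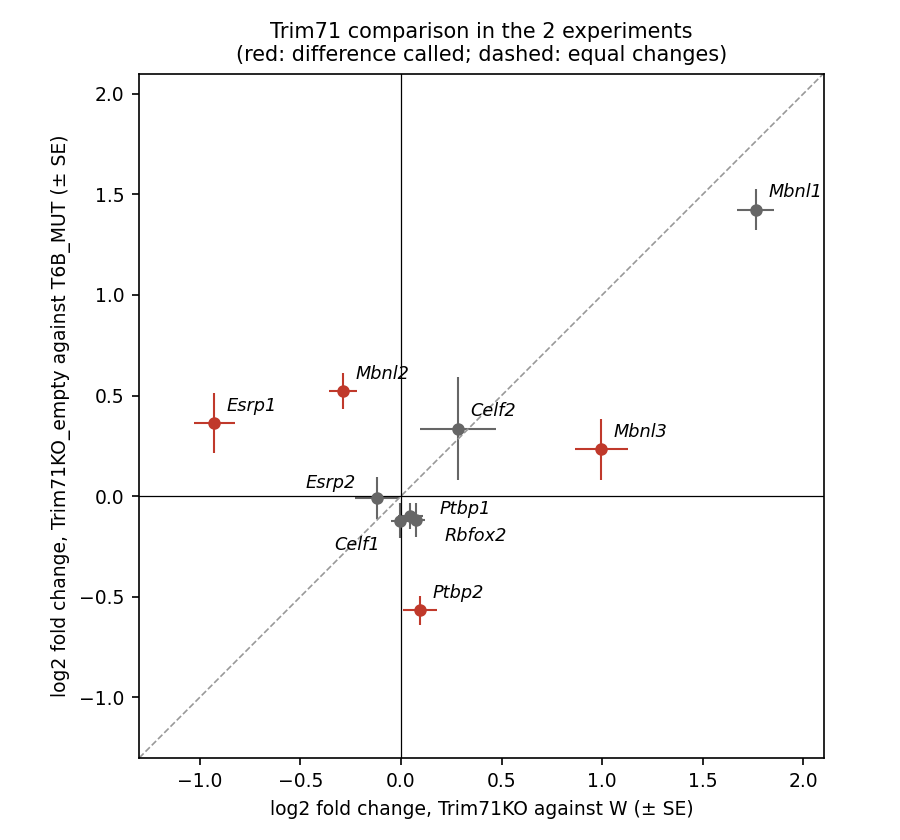
Log2 fold change of each member with the Trim71 edit in Experiment 1 (horizontal axis) and Experiment 2 (vertical axis), with standard errors. Mbnl2, Mbnl3, Ptbp2 and Esrp1, whose differences were called, lie off the dashed line of equal changes, and Mbnl1 lies near it at the upper right.

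Other splicing genes were counted from lists written from general knowledge, to be read against the share of all genes called. That share was 16.9% higher and 15.6% lower in Trim71KO, 10.2% and 7.78% in Ago2KO, 9.29% and 6.69% in T6B_WT, 14.4% and 13.4% in Trim71KO_empty, and 16.4% and 12.4% in the libraries labelled Ago2KO_empty. Of 33 tested lineage regulators (further CELF, ELAVL, RBM, NOVA, QKI, RBPMS, Musashi and related genes), 13 were higher and 4 lower in Trim71KO, with a median log2 fold change of 0.15 against 0.00 for all genes tested. In Ago2KO 2 were higher and 3 lower. In Experiment 2, where 35 were tested, 0 were higher and 2 lower in T6B_WT, 6 higher and 5 lower in Trim71KO_empty, and 4 higher and 3 lower in the libraries labelled Ago2KO_empty. Among core spliceosome genes, 42 tested, 7 were higher and 9 lower in Trim71KO and 1 higher and 9 lower in Ago2KO. The same list gave 2 higher and 12 lower in Trim71KO_empty and 1 higher and 18 lower in the libraries labelled Ago2KO_empty, with medians of -0.09 and -0.17 against 0.00 and 0.03 for all genes, and in T6B_WT 1 higher and 2 lower. Of 26 hnRNP genes, 6 were higher and 2 lower in Trim71KO, 0 and 6 in Ago2KO, 0 and 1 in T6B_WT, 0 and 8 in Trim71KO_empty, and 1 and 4 in the libraries labelled Ago2KO_empty. SR protein genes, 13 tested, had at most 3 calls in any of these 5 comparisons.

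Named by the size of their change, the leading list genes in Trim71KO were Msi1 (log2 fold change 0.92) and Zcchc24 (0.72) among those higher, and Rbm20 (-0.75) and Rbpms2 (-0.51) among those lower. Msi1 encodes the neural progenitor protein Musashi, RBM20 controls titin splicing in heart, and both RBPMS2 and RBM20 are known from muscle. Rbm20 was lower in Trim71KO_empty too (-0.72), so that unlike Mbnl2 or Esrp1 it was called in the same direction in both experiments. The other leading genes in Trim71KO_empty were Rbm4 (0.54), Rbm47 (0.41) and Srsf12 (-0.70). All adjusted p here were 0.0445 or less in edgeR's quasi-likelihood test.

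In Ago2KO the leading genes were Ptbp3 (0.43), the remaining PTB paralog, and Slu7 (0.19), a factor of the late steps of splicing, among those higher, and Celf4 (-0.86) and Rbm47 (-0.47) among those lower. Celf4, a neural CELF paralog, went from 1.96 ± 0.0383 RPKM in W to 1.08 ± 0.105 RPKM in Ago2KO. It was lower with T6B_WT as well, at 1.00 ± 0.0843 RPKM against 2.06 ± 0.126 RPKM in T6B_MUT (SD, n = 3), a log2 fold change of -1.04. Slu7 was higher in T6B_WT (0.35) and in the libraries labelled Ago2KO_empty (0.33), and Ptbp3 was higher in the latter (0.42). Elavl3, a neuronal RNA-binding protein gene, was lower in T6B_WT (-0.58) and in the libraries labelled Ago2KO_empty (-0.78), where Pcbp4 was lower too (-0.73). All adjusted p here were 0.0402 or less in edgeR's quasi-likelihood test.

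The genes whose pattern was most like that of Mbnl1 were found by Pearson r of log2 CPM, centred on the mean of each experiment, over 21 libraries and 12580 genes. They were Ankrd10 (r = 0.98), Plxnb2 (0.98), Rcor3 (0.97), Zfp148 (0.97) and Sprtn (0.97). Plxnb2, which encodes a semaphorin receptor, went from 7.21 RPKM in W to 18.5 in Trim71KO and from 10.9 in T6B_MUT to 25.1 in Trim71KO_empty, and was at 8.48 RPKM in Ago2KO. Ankrd10 went from 12.4 to 23.4 RPKM and from 16.1 to 26.7 RPKM in the same comparisons. Ankrd10 and Sprtn lie on chromosome 8, whose median was raised in both Trim71 comparisons (0.23 and 0.09). Among the other members the same measure was 0.80 for Mbnl3, 0.06 for Mbnl2 and -0.56 for Ptbp2. These values describe libraries that share groups, and with 6 of 21 libraries far above the rest for Mbnl1 they largely rank genes by how they differ with the Trim71 edit.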

How the data were processed

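The authors deposited 1 table of raw read counts and RPKM for 21 libraries and 22512 genes, with a gene length that its header names for QuasR. Counts are whole numbers and not normalized. Per the file headers the other values are RPKM, and the library size they imply was 0.962 to 1.045 of the summed counts. Per the submitters' processing notes, STAR 2.7.3a, bcl2fastq 2.17 and GRCm38 (mm10) were used. Per the labels' protocols, RNA was column-purified with DNase before stranded total RNA library preparation. The annotation, the use of strand in counting and the gene filter are not given in the sources used here. 0 columns of sample values were left unused.

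Raw counts were tested with edgeR 4.0.16 in R 4.3.3 (TMM, filterByExpr with a minimum count of 10, robust quasi-likelihood F test, Benjamini-Hochberg, called at an adjusted p under 0.05). The 9 libraries of Experiment 1 (21210 genes) and the 12 of Experiment 2 (21505 genes) were fitted apart, and all 21 together (22258 genes) for differences between experiments. The script was tested on simulated data. RPKM gave levels, ranges and ratios. The replicates of a group differed by more than sampling noise in every pair (chi-square per degree of freedom 3.74 to 86.4), so each counted as 1. Experiments differed in level and were not tested against each other directly. Alternatives were scaling by library size alone, no filter on low counts, DESeq2 1.42.0, the 2 compared groups alone, a replicate block and leaving out each library.

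The members, lists and tests were chosen with earlier results of these data known. Beside the members, the text names, for each comparison with a control, the 2 called list genes with the largest rise and the 2 with the largest fall (mean log2 CPM of at least 1), and the 5 genes most like Mbnl1 (mean log2 CPM of at least 2). Coordinates and 3′ UTRs are from GENCODE M21 on GRCm38, 1-based, in which 22480 IDs were found. Genes annotated over members on the same strand, apart from that within Celf2, reached at most 6.83% of the member's counts.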

Additional observations from a re-analysis of the deposited data

Results flagged for a closer look

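For 4 members the log2 fold change of the Trim71 comparison differed between the experiments when the difference itself was tested. The test was edgeR's quasi-likelihood test of Trim71KO_empty against T6B_MUT minus Trim71KO against W. The difference in log2 fold change was 0.81 for Mbnl2 and 1.29 for Esrp1, which were lower with the edit in Experiment 1 and not in Experiment 2. It was -0.76 for Mbnl3, which was higher in Experiment 1 alone, and -0.66 for Ptbp2, which was lower in Experiment 2 alone. The experiments differ in transfection, in the control (W or T6B_MUT) and in the experiment number, which cannot be told apart. Primitive endoderm markers (8 of 10 higher and 0 lower in the same test) and two-cell-like markers (6 of 7 higher and 0 lower) went the way of Mbnl2 and Esrp1. Mbnl3 and Ptbp2 went the other way, and the markers' part in the differences was not tested.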

How the results depend on the processing

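Over the alternatives, 798 of 866 member values kept their direction and their side of the threshold, 32 lost a call, 15 gained 1, and 21 changed sign, none of which had been called. With scaling by library size alone, Celf1 in Trim71KO against W became 0.0073 and Celf2 in Trim71KO against Ago2KO -0.018. Leaving out 1 library in turn, values that changed sign ranged as follows. In Trim71KO against W, Celf1 ran from -0.033 to 0.032 and Ptbp1 from -0.020 to 0.080. In Ago2KO against W, Mbnl1 ran from -0.020 to 0.22 and Esrp2 from -0.041 to 0.13. In Trim71KO against Ago2KO, Celf2 ran from -0.15 to 0.15 and Rbfox2 from -0.031 to 0.016. In T6B_WT against T6B_MUT, Mbnl1 ran from -0.018 to 0.064, Celf1 from -0.065 to 0.0042 and Esrp2 from -0.0034 to 0.086. In Trim71KO_empty against T6B_MUT, Esrp2 ran from -0.072 to 0.028. In the libraries labelled Ago2KO_empty against T6B_MUT, Celf1 ran from -0.012 to 0.21. In Trim71KO_empty against those libraries, Mbnl3 ran from -0.035 to 0.15 and Celf2 from -0.40 to 0.15.

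Counts moved too. T6B_WT against T6B_MUT had 3437 genes called, 5632 when these 2 groups were fitted alone, and 2045 to 2497 with 1 library left out, where 1 or 2 members were called. The libraries labelled Ago2KO_empty had 6201 genes called, and 3894 to 8083 with 1 library left out, with 2 to 7 members. The T6B_WT minus Ago2KO difference had 0 or 1 member.

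The ratios with the Trim71 edit, tested in 1 experiment at a time, kept their direction (Mbnl1 to Mbnl2 2.05 and 0.91, Mbnl1 to Mbnl3 0.77 and 1.20), but 3 against 3 libraries cannot pass (exact permutation p 0.10, adjusted 0.20). Mbnl1 to Mbnl3 with the Ago2 edit became 0.014 in Experiment 2 alone and ran from -0.13 to 0.0078 with 1 library left out.

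Replicate numbers did not pair the libraries: 7 of 27 same-number pairs correlated over 0.1, the range being -0.22 to 0.22, and not every library matched its own number best. With a replicate block, members called stayed at 4 in Trim71KO, 2 in Ago2KO, 2 in T6B_WT, 3 in Trim71KO_empty and 4 in the libraries labelled Ago2KO_empty, and Mbnl1 was at 1.76 in Trim71KO. The ratios with the Trim71 edit under the block were 1.48 and 0.98 and no longer passed, with an exact p over signs of 0.03125, the smallest that 6 pairs allow (adjusted 0.0625). Depth limits Celf2 most, at 55 to 175 counts.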
